A study of Mus musculus with 12 samples.

Results

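The CC chemokine ligands described here are 10 genes, Ccl2, Ccl3, Ccl4, Ccl5, Ccl6, Ccl7, Ccl8, Ccl9, Ccl12 and Ccl17, taken by symbol out of the 25655 genes in the deposited count tables. They were measured by RNA-seq in whole retinas of wild-type C57BL/6J mice, 8 to 10 weeks old by the sample labels, that were collected 2 days after optic nerve crush (ONC), an injury in which forceps injure the axons of retinal ganglion cells behind the eye. All groups carried the crush, so no comparison here measures the injury itself. After the crush each eye was injected once into the vitreous with PBS as the control, with fluvastatin, a statin and thus a blocker of HMG-CoA reductase in sterol synthesis, with matrix-bound nanovesicles (MBV), which were prepared from the extracellular matrix of porcine urinary bladder, or with MBV and fluvastatin together. Each of the 4 groups had 3 libraries. Libraries with named count columns were the 3 of PBS, the 3 of fluvastatin and the 3 of MBV, and the combined treatment was not analysed here. Nothing in the labels ties a library to an animal, so the p-values below measure the spread between libraries, which may be technical in part.

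The 9 libraries held 21349516 to 30992040 counts on genes. In the labels, PBS and the combined treatment share a set of library numbers, and fluvastatin and MBV share another. Fluvastatin against PBS and MBV against PBS thus cross the sets. Since each group lies in 1 set, no value within a set can be had for them, and effects of the set cannot be told apart from those of the treatment. MBV against fluvastatin lies within a set. Both comparisons with PBS use the same PBS libraries. The photoreceptor genes that define the retina were abundant in every library, with Rcvrn, the gene for the calcium sensor recoverin, at 12981 to 21879 counts. MBV replicate 3 stood apart from the other libraries in its immune cell genes, and differences of the ligands and of Ccr2 that rest on it are given with and without it.

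CC chemokines are small secreted proteins that attract leukocytes along a gradient through G protein-coupled receptors. CCL2, CCL7 and CCL12 act on CCR2, the receptor of inflammatory monocytes, and CCL8 of the mouse acts on CCR8. CCL3 and CCL5 act on CCR1 among other receptors, and CCL4 is a close relative of CCL3. CCL6 and CCL9 are rodent ligands of CCR1 that macrophages and other myeloid cells make, and CCL17, a product of dendritic cells, acts on CCR4. In the injured retina, microglia, Müller glia and incoming myeloid cells are known sources of several of these ligands. RNA from the whole retina does not separate these sources, and a change in the number of cells of a type and a change in RNA per cell cannot be told apart.

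Compared to PBS, Ccl2 and Ccl5 were higher with MBV, 4.96-fold and 5.23-fold, and Ccl9 was lower with fluvastatin, 1.64-fold. The other ligands did not pass the test in either comparison, and no ligand passed it between MBV and fluvastatin. The test was the quasi-likelihood test of edgeR, adjusted by Benjamini-Hochberg over all genes tested, and a gene was called at an adjusted p-value (FDR) under 0.05. With fluvastatin, 1 of the 10 ligands was called, beside 19.6% of the 18818 genes tested (9.36% higher and 10.2% lower). With MBV, 2 of the 10 were called, both higher, beside 26.1% of 18897 genes (12% higher and 14.1% lower). Between MBV and fluvastatin 0 of 10 were called, beside 0.0588% of 18721 genes (0.0267% higher and 0.0320% lower), and only Ccl5 had an unadjusted p-value under 0.05, as had 2001 of all genes. DESeq2 called 0 of the ligands between MBV and fluvastatin as well. These are small numbers out of 10. In both directions together the share of ligands called does not lie above that of all genes in any comparison, while the share called higher with MBV does, on 2 ligands. The median log2 fold change of the 10 ligands was 0.32 with fluvastatin and 0.68 with MBV compared to PBS, where that of all genes was -0.0072 and 0.0095.

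**Figure D1:**
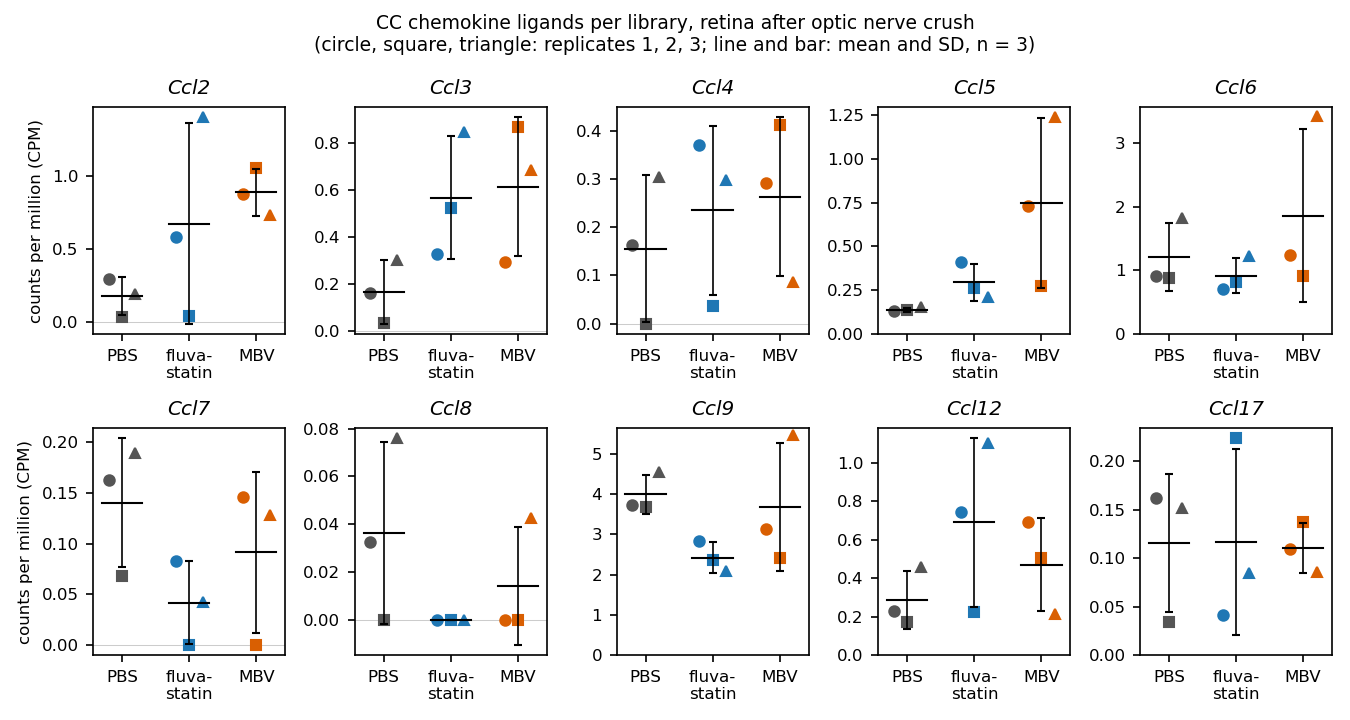
Each panel plots a CC ligand in CPM (counts per 1000000, y axis, linear) for the libraries of PBS, fluvastatin and MBV (x axis), with circles, squares and triangles for replicates 1, 2 and 3 and with the mean and SD of 3 libraries. All 3 MBV libraries lie above all 3 PBS libraries for Ccl2 and Ccl5, and all 3 fluvastatin libraries lie below all 3 PBS libraries for Ccl9, while the y axes differ between panels and most ligands lie under 1 CPM.

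Most ligands were rare at this depth. CPM values are counts per 1000000 counts of a library, with library sizes adjusted by edgeR's TMM method, and at most 128 counts fell on any ligand in any library. Where every library of a group held 3 or fewer counts of a ligand, that ligand counts here as at the limit of detection in the group. This limit covers only counting error, and PCR copies of a molecule were counted as separate reads. Ccl8 was at this limit in all 3 groups, Ccl7 with fluvastatin and Ccl17 with MBV. Summed over the 10 ligands, the libraries held 148 to 216 counts with PBS, 120 to 172 with fluvastatin and 144 to 283 with MBV. Ccl9 took 55.6% to 73.0% of these counts with PBS, 28.5% to 52.5% with fluvastatin and 36.8% to 45.2% with MBV, so its share in each treated library was below its share in each PBS library.

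Of the ligands of CCR2, Ccl2, the main attractant of monocytes, had 9, 1 and 5 counts with PBS, 14, 1 and 33 with fluvastatin and 24, 23 and 17 with MBV. The MBV libraries lay together and above all PBS libraries, whereas fluvastatin replicate 2 was as low as the lowest PBS library and fluvastatin replicate 3 was the highest of all 9. In CPM the mean was 0.172 ± 0.130 for PBS, 0.671 ± 0.686 for fluvastatin and 0.885 ± 0.162 for MBV (SD, n = 3 each). With MBV the log2 fold change was 2.31 (standard error 0.522, FDR 0.0117 in edgeR's test), and it stayed between 1.83 and 2.96 and called when each library in turn was left out. With fluvastatin it was 1.90 (standard error 0.915, FDR 0.182), a value that fell to 0.77 (FDR 0.637) without fluvastatin replicate 3 and rose to 2.48 (FDR 0.0459) without fluvastatin replicate 2. A single fit of all 9 libraries gave nearly the same fold change with MBV, 2.32, and an FDR of 0.0588. The difference of MBV from fluvastatin was 0.42 with a 95% interval from -1.18 to 2.02, which includes 0 and a change of over 2-fold in either direction.

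Ccl12, a CCR2 ligand of the mouse that lies in the same cluster on chromosome 11 as Ccl2, had 7, 5 and 12 counts with PBS, 18, 6 and 26 with fluvastatin and 19, 11 and 5 with MBV. The groups overlapped in each comparison. Its log2 fold change was 1.27 with fluvastatin (standard error 0.583, FDR 0.163) and 0.74 with MBV (standard error 0.544, FDR 0.358). Over the 9 libraries its level went with that of Ccl2, with Pearson's r 0.74 of log2(CPM + 0.5), the value nearest to 1 among the 10 pairs of the 5 ligands that averaged at least 10 counts. The points of such a correlation share the groups and the depth of the libraries, so it is given as a description.

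The remaining monocyte chemoattractants were near or at the limit of detection. Ccl7 had 5, 2 and 5 counts with PBS, 2, 0 and 1 with fluvastatin and 4, 0 and 3 with MBV, and the test gave an FDR of 0.238 with fluvastatin and 0.675 with MBV. Ccl8 had 1, 0 and 2 counts with PBS, 0 in each fluvastatin library and 0, 0 and 1 with MBV, so no fold change is given for it. No difference in Ccl7 or Ccl8 was detectable at this depth.

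Ccl5, which T cells, NK cells and activated myeloid cells make, had 4, 4 and 4 counts with PBS, 10, 7 and 5 with fluvastatin and 20, 6 and 29 with MBV. All treated libraries were above all PBS libraries, with MBV replicate 2 close to the fluvastatin libraries and MBV replicate 3 the highest. In CPM the mean was 0.139 ± 0.0113 for PBS, 0.295 ± 0.104 for fluvastatin and 0.748 ± 0.483 for MBV (SD, n = 3 each). With MBV it was higher than with PBS by 2.39 on the log2 scale (standard error 0.588, FDR 0.0170). Without MBV replicate 3 it was 1.85 and still called (FDR 0.0315), and it was no longer called without PBS replicate 1 (2.34, FDR 0.0673) or without PBS replicate 2 (2.38, FDR 0.0569). With fluvastatin it was 1.06 (standard error 0.511, FDR 0.181). MBV exceeded fluvastatin by 1.33 on the log2 scale, with an unadjusted p of 0.0379 and an FDR of 0.441 in edgeR's test, and the 95% interval ran from 0.092 to 2.58. Without MBV replicate 3 this difference was 0.79 (FDR 0.585).

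Ccl3, the macrophage inflammatory protein 1 alpha gene, had 5, 1 and 8 counts with PBS, 8, 14 and 20 with fluvastatin and 8, 19 and 16 with MBV. All fluvastatin libraries were above all PBS libraries in CPM, and with MBV replicate 1 lay inside the PBS range. In CPM the mean was 0.167 ± 0.135 for PBS, 0.567 ± 0.262 for fluvastatin and 0.615 ± 0.294 for MBV (SD, n = 3 each). Its log2 fold change was 1.76 with fluvastatin (standard error 0.611, FDR 0.0692) and 1.85 with MBV (standard error 0.649, FDR 0.0649). Each comparison called Ccl3 when PBS replicate 3 or replicate 1 of the treated group was left out, with FDRs of 0.0424 and 0.0279 for fluvastatin and 0.0460 and 0.0492 for MBV. Ccl3 overlaps Gm53692 on the opposite strand and shares 128 sequences of 75 bases with transcripts of that gene, and with no other gene. The sources used here do not say whether strand was used in counting, so the counts of Ccl3 are uncertain to that extent.

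Ccl4, the neighbour of Ccl3 and the macrophage inflammatory protein 1 beta gene, had 5, 0 and 8 counts with PBS, 9, 1 and 7 with fluvastatin and 8, 9 and 2 with MBV. The 3 groups overlapped, and replicate 2 was the lowest library with PBS and with fluvastatin but the highest with MBV. The log2 fold change was 0.59 with fluvastatin (standard error 0.909, FDR 0.694) and 0.76 with MBV (standard error 0.869, FDR 0.553). The 95% intervals, -1.43 to 2.60 and -1.20 to 2.72, show how little 13 to 19 counts in a group can tell about this gene.

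**Figure D2:**
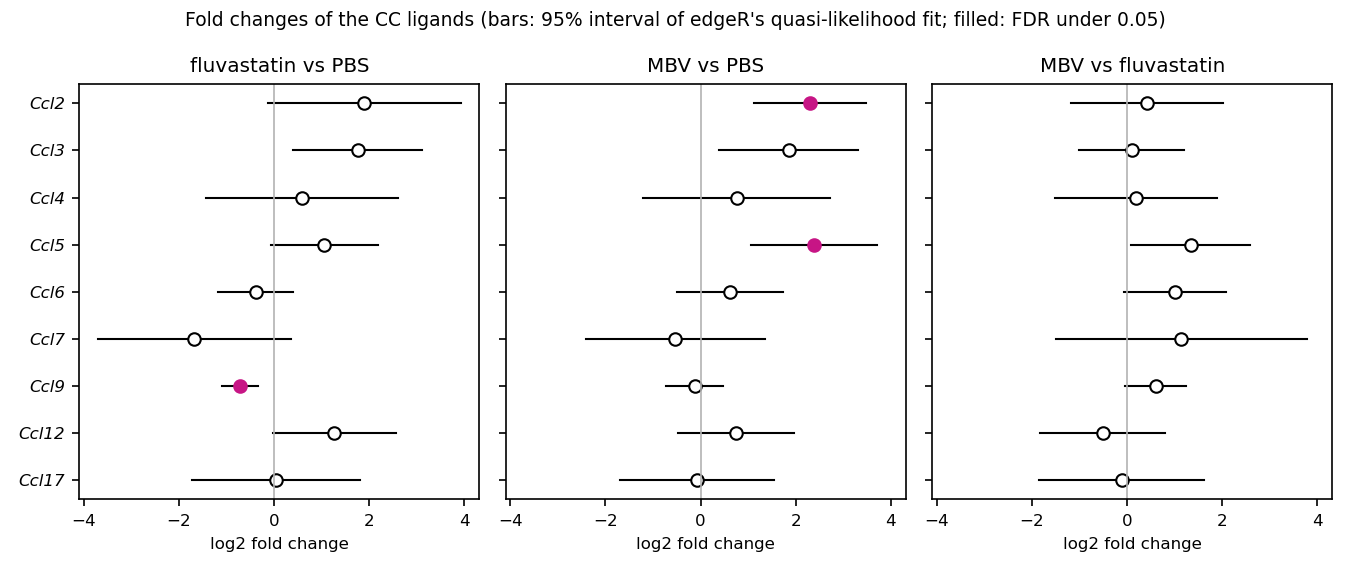
The log2 fold change (x axis) of 9 of the 10 CC ligands (y axis) is plotted in the 3 comparisons. Bars show the 95% interval derived from edgeR's quasi-likelihood test, and filled points an FDR under 0.05. Ccl8 is left out because it was at the limit of detection in all groups. Filled are Ccl9 at -0.72 with fluvastatin, and Ccl2 at 2.31 and Ccl5 at 2.39 with MBV, and the interval of Ccl9 is the narrowest in each panel.

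Ccl9, a ligand of CCR1, was the ligand with most counts in each library. It had 115, 108 and 120 counts with PBS, 69, 63 and 49 with fluvastatin and 86, 53 and 128 with MBV. The fluvastatin libraries were all below the PBS libraries, and the MBV libraries spread from inside the fluvastatin range to above all PBS libraries. In CPM the mean was 3.99 ± 0.491 for PBS, 2.43 ± 0.387 for fluvastatin and 3.68 ± 1.60 for MBV (SD, n = 3 each). With fluvastatin its log2 fold change was -0.72 (standard error 0.171, FDR 0.0157 in edgeR's test). The call was lost without fluvastatin replicate 2 (FDR 0.0612), fluvastatin replicate 3 (FDR 0.0542) or PBS replicate 3 (FDR 0.0510), and in a single fit of all 9 libraries (FDR 0.0798), while the fold change stayed between -0.84 and -0.61. With MBV it was -0.13 (standard error 0.268, FDR 0.763), and without MBV replicate 3 it was -0.52 (FDR 0.0528). MBV and fluvastatin differed by 0.60 (95% interval from -0.047 to 1.25, FDR 0.496), and by 0.20 without MBV replicate 3 (FDR 0.727).

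Ccl6, also a ligand of CCR1, had 28, 26 and 48 counts with PBS, 17, 22 and 29 with fluvastatin and 34, 20 and 80 with MBV. The groups overlapped, and replicate 3 was the highest library of each group, most of all with MBV. In CPM the mean was 1.21 ± 0.534 for PBS, 0.917 ± 0.277 for fluvastatin and 1.86 ± 1.36 for MBV (SD, n = 3 each). The log2 fold change was -0.39 with fluvastatin (standard error 0.355, FDR 0.501) and 0.62 with MBV (standard error 0.494, FDR 0.400). Without MBV replicate 3 the latter turned to -0.14 (FDR 0.803), so the sign of this value rests on that library. E230016K23Rik overlaps Ccl6 on the opposite strand, and their reads may not have been told apart.

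Ccl6 and Ccl9 lie next to each other on the minus strand of chromosome 11 in GRCm39, Ccl9 (ENSMUSG00000019122) from 83463745 to 83469462 and Ccl6 (ENSMUSG00000018927) from 83478708 to 83483913. Their levels went together over the 9 libraries (Pearson's r 0.71 of log2(CPM + 0.5)), whereas Ccl9 went against Ccl12 (r -0.55). The promoter windows of both are shown with that of Ccl12 because these ligands moved together or apart. Each runs from 250 bases before to 50 bases after the gene's start and is taken from RefSeq for GRCm38.p6, which held 6 of the 10 ligands (Ccl3, Ccl6, Ccl8, Ccl9, Ccl12 and Ccl17) and no entry for Ccl2, Ccl4, Ccl5 and Ccl7. Capitals mark matches to the motifs named below.
Ccl9, chr11:83578587-83578886, minus strand: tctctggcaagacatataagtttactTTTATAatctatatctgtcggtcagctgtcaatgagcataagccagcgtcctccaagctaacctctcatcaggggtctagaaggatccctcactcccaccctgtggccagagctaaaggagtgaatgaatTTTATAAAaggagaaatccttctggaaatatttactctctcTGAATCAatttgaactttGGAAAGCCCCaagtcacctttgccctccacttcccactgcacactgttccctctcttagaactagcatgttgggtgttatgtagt
Ccl6, chr11:83593038-83593337, minus strand: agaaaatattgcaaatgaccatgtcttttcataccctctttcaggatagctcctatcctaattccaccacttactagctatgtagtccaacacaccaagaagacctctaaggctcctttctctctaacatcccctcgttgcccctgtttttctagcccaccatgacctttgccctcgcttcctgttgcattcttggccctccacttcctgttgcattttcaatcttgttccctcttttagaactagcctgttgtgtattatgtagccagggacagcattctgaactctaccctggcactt
Ccl12, chr11:82101595-82101894, plus strand: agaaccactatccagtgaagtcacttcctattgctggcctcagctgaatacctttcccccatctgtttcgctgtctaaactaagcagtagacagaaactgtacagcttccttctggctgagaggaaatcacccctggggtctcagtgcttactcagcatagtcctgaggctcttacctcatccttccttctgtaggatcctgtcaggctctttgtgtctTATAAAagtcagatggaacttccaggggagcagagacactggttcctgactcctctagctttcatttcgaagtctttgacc

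On either strand, the AP-1 motif TGANTCA occurred in 1 of the 6 windows, that of Ccl9, at position -53 from the start, and in 7.81% of the 32851 windows of the table. The NF-kappa-B consensus (kappa-B consensus) also occurred in Ccl9 alone, from position -35, and in 8.46% of all windows. The TATA box TATAAA occurred in Ccl8, Ccl9 and Ccl12, at -31 in Ccl12 and at -92 and 2 further places in Ccl9, the match at -94 overlapping that at -92, and in 13.6% of all windows. The STAT motif TTCNNNGAA occurred in Ccl17 alone (8.30% of all windows), and the interferon-stimulated response element (ISRE, 3.44%) and TTNNGCAA, the C/EBP motif (10.8%), in none of the 6. The window of Ccl6 held no match. The longest run of identical bases that a pair of windows shared on the same strand was 13 bases, between Ccl6 and Ccl9, and it was 7 to 11 bases in the other 14 pairs. Matches of letters in a window are a description, and binding was not measured.

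Ccl17, the ligand of CCR4 that lies on chromosome 8 apart from the other 9 ligands on chromosome 11, had 5, 1 and 4 counts with PBS, 1, 6 and 2 with fluvastatin and 3, 3 and 2 with MBV. The groups overlapped throughout, and the counts in every library stayed at 6 or fewer. The FDR was 0.973 with fluvastatin and 0.949 with MBV, and differences were not detectable at this depth.

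**Figure D3:**
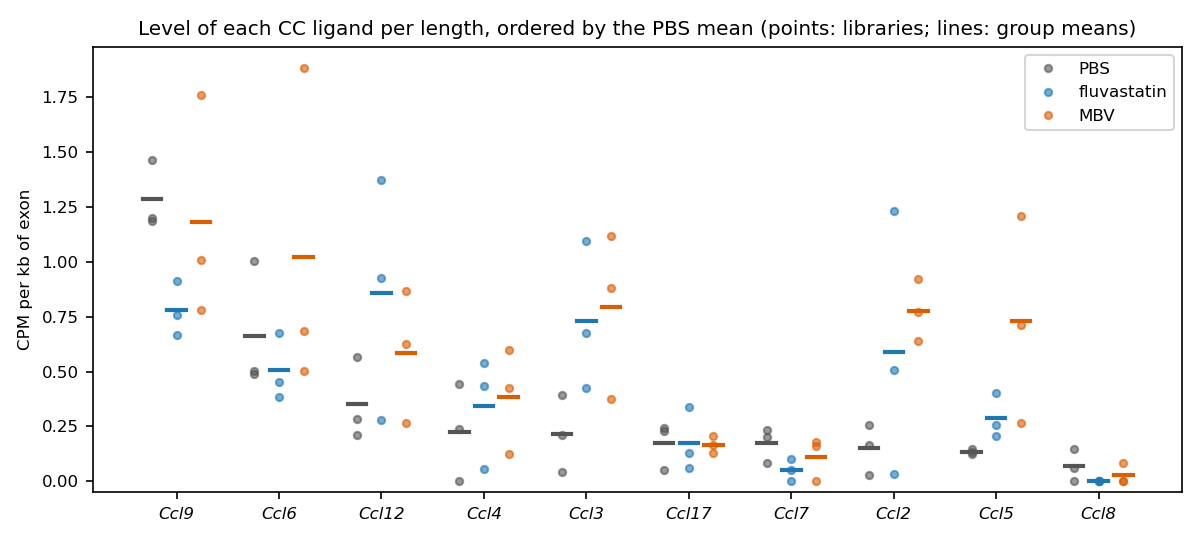
The level of each CC ligand per length is plotted in CPM per kb of exon (y axis, linear), with a point for each library, a line for each group mean and the ligands (x axis) in the order of the PBS mean. Ccl9 stands at 1.28 CPM per kb and above the other ligands with PBS, whereas with fluvastatin Ccl12, Ccl9 and Ccl3 lie between 0.73 and 0.86, and with MBV the first 5 ligands lie between 0.73 and 1.18.

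To compare the ligands with each other, CPM was divided by the length of each gene's exons. With PBS, Ccl9 came first at 1.28 ± 0.158 CPM per kb, then Ccl6 at 0.664 ± 0.294 and Ccl12 at 0.354 ± 0.188 (SD, n = 3), and the ranges of Ccl9 and Ccl6 did not overlap. All later neighbours in this order overlapped in their ranges, down to Ccl2 in place 8 at 0.151 ± 0.114 and Ccl5 in place 9 at 0.136 ± 0.0110. With fluvastatin the order began with Ccl12 at 0.859 ± 0.550, Ccl9 at 0.779 ± 0.124 and Ccl3 at 0.731 ± 0.338, and with MBV with Ccl9 at 1.18 ± 0.513, Ccl6 at 1.02 ± 0.750, Ccl3 at 0.792 ± 0.379, Ccl2 at 0.778 ± 0.142 and Ccl5 at 0.729 ± 0.471. In both treated groups every pair of neighbours overlapped, so their order is not settled.

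Counting ligands by whether the libraries of 2 groups overlapped gave 2 higher (Ccl3 and Ccl5) and 1 lower (Ccl9) with fluvastatin compared to PBS, where 17.3% and 19.3% of all genes were higher or lower without overlap. With MBV it gave 2 higher (Ccl2 and Ccl5) and 0 lower, beside 20.3% and 21.0% of all genes. Between MBV and fluvastatin it gave 0 in either direction, beside 8.53% and 7.88% of all genes. These counts are near the shares of all genes. The median log2 fold change of MBV against fluvastatin over the ligands was 0.51, or 0.14 with ligands at the limit of detection set to their bound, and that of all genes was 0.011.

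**Figure D4:**
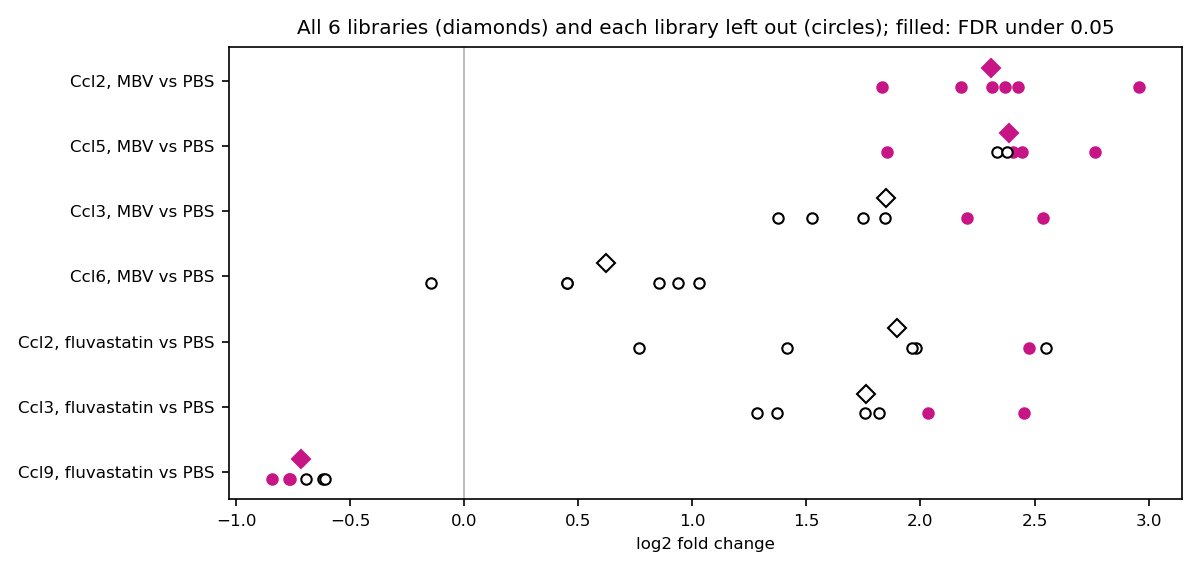
The log2 fold change (x axis) of 7 results on single ligands (y axis) is plotted from all 6 libraries of the comparison (diamonds) and with each library left out in turn (circles), filled where the FDR was under 0.05. Ccl2 with MBV is filled in all fits, Ccl5 with MBV and Ccl9 with fluvastatin lose the call in some, and Ccl6 with MBV crosses 0 in a single fit, that without MBV replicate 3.

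Immune cell markers were read beside the ligands, as lists of genes. The microglia list (10 genes, with Tmem119 and P2ry12) summed to 94.8 to 108 CPM per library with PBS, 83.0 to 95.3 with fluvastatin and 91.4 to 109 with MBV. The monocyte list (12 genes) summed to 8.83 to 15.9 CPM with PBS and 9.46 to 10.7 with fluvastatin, and to 15.0, 11.0 and 39.1 CPM in MBV replicates 1, 2 and 3. Ly6c2, which marks inflammatory monocytes and was named, like Cd74, after the values were seen, had at most 2 counts in a PBS or fluvastatin library and 67 in MBV replicate 3. The dendritic cell list (10 genes) likewise summed to 22.5 to 28.5, 19.3 to 24.8 and 24.9 to 84.9 CPM, with Cd74, the MHC class II invariant chain, at 849 counts in MBV replicate 3 and at most 160 in a PBS library. Ccl5, Ccl6 and Ccl9 were highest of all libraries in MBV replicate 3, and Ccl2 was lower there than in the other MBV libraries. Of the monocyte list 1 of 12 genes was called with MBV, Itgal, which was higher (log2 fold change 1.50, FDR 0.0327) but not called without MBV replicate 3 (1.08, FDR 0.0670) or, in turn, without MBV replicate 1, PBS replicate 1 or PBS replicate 2. Of the dendritic list 0 of 10 were called with MBV, where 26.1% of all genes were called. Without MBV replicate 2, 6 of the monocyte list and 3 of the dendritic list were called, beside 3619 of the 18764 genes tested.

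**Figure D5:**
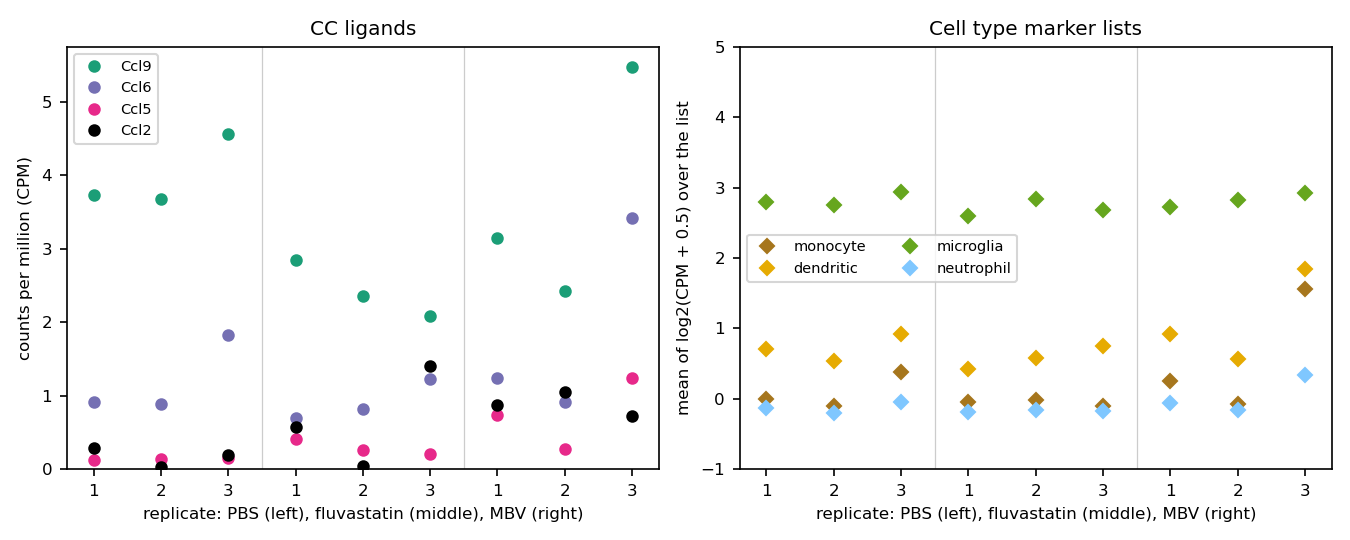
The left panel plots Ccl9, Ccl6, Ccl5 and Ccl2 in CPM (y axis, linear) and the right panel the mean of log2(CPM + 0.5) over the monocyte, dendritic cell, microglia and neutrophil lists (y axis), both against the 9 libraries (x axis: replicates 1 to 3 of PBS, fluvastatin and MBV). In MBV replicate 3 the monocyte list is at 1.56 and the dendritic list at 1.84, above all other libraries, where Ccl9, Ccl6 and Ccl5 are also highest and Ccl2 is not, while the microglia list stays between 2.59 and 2.94 in all 9.

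Beside the lower Ccl9 with fluvastatin, 3 of 10 genes of the macrophage list (Pf4, Msr1 and Lyz2) and 2 of 10 of the microglia list, among them Gpr34, were lower, as were 1 of 12 of the monocyte list (S100a4) and 1 of 10 of the dendritic list (H2-Aa). Of all genes 10.2% were called lower. With each library left out in turn, Pf4 stayed called and S100a4 was never called. Lyz2 was lost without fluvastatin replicate 3, and H2-Aa without PBS replicate 1 or fluvastatin replicate 2. Msr1 was called only without PBS replicate 2 or fluvastatin replicate 1, and both microglia genes only without fluvastatin replicate 3. The macrophage list summed to 40.8 to 51.0 CPM with PBS, 31.1 to 35.4 with fluvastatin and 30.9 to 89.6 with MBV. The neutrophil list (10 genes) summed to 9.21 to 14.0, 13.8 to 16.8 and 15.9 to 21.6 CPM, with Ly6g at 0 in all 9 libraries. Most of that sum was Mmp9, a gelatinase gene, at 9.32 CPM on average with PBS, 13.5 with fluvastatin and 14.6 with MBV, and it was called higher with both (FDR 0.0349 and 0.0126). Its call with MBV held whichever library was left out, and that with fluvastatin only without PBS replicate 3 or fluvastatin replicate 1. S100a8, a calgranulin gene, was lower with fluvastatin (FDR 0.0393), at 25 counts over the PBS libraries and 3 over the fluvastatin libraries. The call of S100a8 was lost with any 1 library left out. Mmp9 and S100a8 were named after the values were seen. Of the 9 genes tested in that list, 5 lay below 0 with fluvastatin and 1 with MBV, with median log2 fold changes of -0.21 and 0.64. Of the T and NK cell list, which includes cells known for CCL5, 0 of 12 genes were called in any comparison, Cd3g, Trac and Ncr1 were at 0 in all 9 libraries, and the list summed to at most 2.40 CPM in any library. The list for mast cells, basophils and eosinophils summed to at most 0.813 CPM, with Mcpt8 at 0. The part of these cell types in the values of the ligands was not tested.

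Genes of tissues next to the retina moved as well. All 8 genes of the lens list were higher with MBV compared to PBS, from 0.988 to 5.88 CPM summed per PBS library to 64.1 to 178 with MBV, and 0 of 8 were called with fluvastatin (2.50 to 23.2 CPM). Of the pigment epithelium list 5 of 8 genes were lower and 1 higher with each treatment, and it summed to 123 to 165 CPM with PBS, 71.7 to 95.6 with fluvastatin and 52.2 to 102 with MBV. Of the surface epithelium list 1 of 8 genes was lower with fluvastatin and 4 of 8 with MBV. The Müller glia list had 6 of 10 genes lower with fluvastatin and 4 of 10 with MBV, the astrocyte list 0 of 6 with either. The endothelial list had 1 of 8 genes lower with fluvastatin and 2 of 8 higher with MBV. Of the retina list 1 gene was higher and 2 were lower of 10 with fluvastatin and 5 were lower with MBV, and of the ganglion cell list 3 of 10 were higher with fluvastatin, and 1 was higher and 1 lower with MBV. Without MBV replicate 3, lower with MBV were 9 of 10 of the retina list, 6 of the Müller glia list and 2 of the astrocyte list. In that fit 2 of the Müller glia list were higher, and all 8 of the lens list were still higher. With each library left out in turn, the genes called with MBV in either direction were 5 to 8 for the lens list (5 when any 1 PBS library was left out), 1 to 9 for the retina list, 3 to 8 for the Müller glia list and 0 to 5 for the surface epithelium list. With fluvastatin they were 2 to 8 for the Müller glia list and 2 to 9 for the ganglion cell list, highest for both without fluvastatin replicate 1. Over these fits all genes called numbered 2711 to 5664 with MBV and 1726 to 4402 with fluvastatin, the latter also highest without fluvastatin replicate 1. The part of these tissues and cell types in the values of the ligands was not tested either.

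Of the 14 genes for the receptors, scavengers and related receptors of CC chemokines, 12 entered the test with fluvastatin and 13 with MBV. Of these, 0 were called with fluvastatin and 2 with MBV, both higher. Of all genes tested, 19.6% and 26.1% were called. Ackr1, which binds chemokines on venous endothelium without signalling, was at 1453, 1390 and 1250 counts in PBS libraries and at 1694, 1553 and 1320 in MBV libraries, higher by 0.40 on the log2 scale (standard error 0.0764, FDR 0.00535 in edgeR's test). Ccr10, the receptor of CCL27 and CCL28, was at 37, 47 and 41 counts in PBS libraries and at 69, 59 and 58 in MBV libraries, higher by 0.81 (standard error 0.195, FDR 0.0157), and not called without PBS replicate 1 (0.68, FDR 0.0715). Ackr1 overlaps Cadm3 on the same strand and Ccr10 overlaps Cntnap1 on the opposite strand, so their counts may include reads of those genes. The signalling receptors that the 10 ligands act on were not among the calls. Ccr2 had 21, 8 and 40 counts with PBS, 12, 32 and 13 with fluvastatin and 65, 13 and 222 with MBV (log2 fold change with MBV 2.34, standard error 0.870, FDR 0.0787), with MBV replicate 3 far above the rest and replicate 2 inside the PBS range. Without MBV replicate 3 its log2 fold change was 0.90 (FDR 0.293), and without MBV replicate 2 it was 2.85 and called (FDR 0.0169). Ccr1, named like Ccr8 after the values were seen, had 15, 7 and 35 counts with PBS, 18, 4 and 3 with fluvastatin and 14, 7 and 41 with MBV. Ccr8 was at 0 in all 9 libraries.

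Of the 14 further CC ligands, Ccl28, a mucosal ligand of CCR10, was higher with fluvastatin, with 102, 78 and 67 counts in the PBS libraries and 98, 117 and 89 with fluvastatin (log2 fold change 0.51, standard error 0.157, FDR 0.0442). That call was lost with any 1 of the 6 libraries left out, at 0.45 to 0.64 with FDRs of 0.0512 to 0.141. With MBV its log2 fold change was 0.43 (FDR 0.0985), and 0.53 without MBV replicate 3 (FDR 0.0374). Ccl21d, a gene for the CCR7 ligand CCL21, was lower with fluvastatin (FDR 0.0496) and with MBV (FDR 0.0476), on 19, 0 and 20 counts with PBS, 0 in each fluvastatin library and 1, 0 and 0 with MBV. PBS replicate 2 was also at 0, and Ccl21d has the near-identical copies Ccl21a and Ccl21b between which reads can be split, so the value is uncertain. When a library was left out, it was called with MBV only without PBS replicate 2, and with fluvastatin only without that library or fluvastatin replicate 1. Ccl1, Ccl20 and Ccl26 were at 0 in all 9 libraries. Of the 14, 11 entered the test with fluvastatin, 10 with MBV and 11 between MBV and fluvastatin. Of these, 2, 1 and 0 were called, beside 19.6%, 26.1% and 0.0588% of all genes tested.

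Of 30 genes that induce or control CC ligands, 28 entered the test with fluvastatin and 29 with MBV. Of these, 1 was called with fluvastatin and 6 with MBV, beside 19.6% and 26.1% of all genes tested. Neither count lies above the share of all genes. Il33, an alarmin of the interleukin 1 family that retinal glia make, was lower with both treatments. It had 2022, 1773 and 1940 counts with PBS, 1225, 835 and 1048 with fluvastatin and 1322, 972 and 1145 with MBV, with log2 fold changes of -0.67 (standard error 0.142, FDR 0.00947) and -0.50 (standard error 0.0742, FDR 0.00184). With MBV, Tlr2, a receptor for bacterial lipoproteins, was higher by 1.54 (FDR 0.00849), from 16, 22 and 35 counts in PBS libraries to 58, 55 and 69 in MBV libraries. Its adaptor gene Myd88 was higher by 0.69 (FDR 0.0362), and the NF-kappa-B subunit genes Nfkb1 by 0.32 (FDR 0.0135) and Nfkb2 by 0.84 (FDR 0.0175). Fosl1, a component of AP-1, was higher by 2.62 (FDR 0.0321), with 10, 11 and 11 counts in PBS libraries and 69, 92 and 6 with MBV. MBV replicate 3 was thus the lowest of these 6 libraries for Fosl1, and it was also the lowest of the MBV libraries for Ccl2. Il33, Tlr2 and Nfkb1 were called with MBV whichever library was left out. Nfkb2 was not called without PBS replicate 1 or PBS replicate 2, and Myd88 not without those or without MBV replicate 1 or MBV replicate 2. Fosl1 was called only without MBV replicate 3 (3.14, FDR 3.1e-05) among the fits with a library left out. The count of 6 became 11 without MBV replicate 3, 10 without PBS replicate 3 and 3 without PBS replicate 1 or PBS replicate 2. All genes called numbered 5664, 4151, 2711 and 3461 in these fits, in that order, beside 4937 with no library left out. Between MBV and fluvastatin 0 of the 29 tested were called.

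For each ligand with a mean of at least 10 counts, the 3 genes whose log2(CPM + 0.5) followed it most closely over the 9 libraries were named among 15055 genes, by Pearson's r. They were Hs3st3a1 (0.98), Crip1 (0.97) and Chil1 (0.96) for Ccl9, and Serpine2 (0.97), Csf2rb (0.96) and Fcgr3 (0.95) for Ccl6. Chil1, a chitinase-like protein of macrophages and glia, was at 60.3, 35.3 and 79.7 CPM with PBS, 36.7, 20.7 and 17.3 with fluvastatin and 32.1, 26.4 and 132 with MBV, so it shared with Ccl9 low values with fluvastatin and a high value in MBV replicate 3. For Ccl12 they were Cxcl10 (0.91), Lrwd1 (0.90) and Setdb2 (0.90). Cxcl10, an interferon-induced chemokine of the CXC family, was at 0.195, 0.273 and 0.570 CPM with PBS, 3.46, 0.262 and 3.14 with fluvastatin and 1.50, 2.56 and 0.128 with MBV, low in fluvastatin replicate 2 and MBV replicate 3 as Ccl12 was. For Ccl2 they were Pcdhgb7 (0.93), S100a11 (0.92) and Il4ra (0.92), and for Ccl3 Epb41l4a (0.96), Gpr157 (0.95) and Pakap_1 (0.95). With 9 libraries in 3 groups, values of r this high are the extremes among 15055 genes and carry no p-value.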

How the data were processed

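RNA was taken from whole retinas 2 days after ONC, with 3 libraries per group. The authors used CLC Genomics Workbench to align reads to GRCm39 and to count them, and deposited raw counts per gene, not normalized, in 4 tables, beside the fold changes, p-values and FDRs of their own comparisons. Those comparison columns were not used. Counts came from the columns that name a library. The table for MBV with fluvastatin has 6 count columns that name none, and they were not used here. The combined treatment was therefore not analysed here, and the comparisons planned with it (against PBS, MBV and fluvastatin, both main effects and the interaction) were not run.

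With edgeR 4.0.16 (R 4.3.3), genes with at least 1 count over the 6 libraries entered a fit of the 2 groups with TMM scaling. The quasi-likelihood test followed, with adjustment by Benjamini-Hochberg over all genes tested. Standard errors were derived from that test, as the absolute log2 fold change divided by the square root of the F statistic. The 95% intervals were taken from these standard errors with the t distribution, so both are approximate at low counts. The common dispersion gave a coefficient of variation between replicates of 7.78% in the fit of fluvastatin with PBS, 8.57% in that of MBV with PBS and 10.1% in that of MBV with fluvastatin. On simulated counts, of 100 genes changed 2-fold the procedure recovered 95 for fluvastatin and PBS (18514 genes, 12 false calls), 96 for MBV and PBS (18596 genes, 8 false calls) and 94 for MBV and fluvastatin (18449 genes, 10 false calls). The changed genes were drawn from those with a mean of at least 10 counts, and every gene was given the common dispersion. Rarer genes and genes with a wider spread were not covered, so these shares do not hold for the ligands. The alternatives were DESeq2's size factors, DESeq2 1.42.0, a filter of more than 10 counts in 2 libraries of a group, a minimum fold change of 2, a replicate block, a single fit of all 9 libraries, CPM from summed counts, and each library left out. Figures and summaries used Python 3.11.15, pandas 2.3.3 and matplotlib 3.10.9.

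Gene positions are from the deposited tables in GRCm39, and exon lengths and overlaps are from GENCODE mouse release 39, which matched all 10 ligands. All 10 ligands were named with their values. Of the lists of other CC ligands, receptors and inducers, genes called in any comparison were named with Ccr2, and for each ligand with a mean of at least 10 counts the 3 genes most like it. Some genes of the lists are not reported here by name. The ligands and all lists were chosen with earlier results of these data known. All values rest on small counts, and intervals and limits cover no error of the counting of reads on genes.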

Additional observations from a re-analysis of the deposited data

How the results depend on the processing

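With fluvastatin compared to PBS, the count of ligands called went from 1 to 0 in a single fit of all 9 libraries and to 0 with a minimum fold change of 2. All genes called went from 3687 to 3514 and to 220 there. With each library left out in turn, the ligands called ranged from 0 to 2 and all genes called from 1726 to 4402. Ccl9 and Ccl3 were called without fluvastatin replicate 1 (4402 of all genes) and Ccl2 alone without fluvastatin replicate 2 (2113 of all genes). None was called without fluvastatin replicate 3 (2657 of all genes), and Ccl3 alone without PBS replicate 3 (3026 of all genes). With MBV compared to PBS, the count went from 2 to 1 in a single fit of all 9 libraries, where Ccl5 was called and Ccl2 was not. It ranged from 1 to 3 with a library left out: Ccl2 alone without PBS replicate 1 or PBS replicate 2, and Ccl3 in addition without MBV replicate 1 or PBS replicate 3. All genes called numbered 4937 in the fit reported, 4944 in the fit of all 9 libraries and 2711 to 5664 with a library left out. Between MBV and fluvastatin the count of ligands was 0 in every alternative. All genes called numbered 11 in the fit reported, 122 in DESeq2, 38 in the fit of all 9 libraries and 5 with the filter on low counts. They numbered 0 with the replicate block and 0 to 197 with a library left out. The cause of these changes was not tested.

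Signs turned when a library was left out, over ranges of log2 fold change of -0.65 to 0.028 for Ccl6 and -0.84 to 0.43 for Ccl17 with fluvastatin, -0.14 to 1.03 for Ccl6, -0.52 to 0.095 for Ccl9 and -0.50 to 0.26 for Ccl17 with MBV, and -0.16 to 1.54 for Ccl2, -0.23 to 0.49 for Ccl3, -0.34 to 0.68 for Ccl4 and -0.50 to 0.77 for Ccl17 between MBV and fluvastatin. None of these values had passed the test.

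The labels number the replicates 1 to 3 in each group, and nothing in them says that the numbers pair the samples. The deviations of same-numbered libraries from their group means correlated with r of 0.028, -0.030 and 0.16 for fluvastatin and PBS, 0.012, -0.013 and 0.039 for MBV and PBS, and -0.14, 0.020 and -0.37 for MBV and fluvastatin. Those of libraries with different numbers ran from -0.15 to 0.11, from -0.15 to 0.16 and from -0.28 to 0.35. With the replicate number as a block, the ligands called were unchanged in the 3 comparisons, Ccl9 with fluvastatin (log2 fold change -0.72, FDR 0.0218) and Ccl2 (2.34, FDR 0.0341) and Ccl5 (2.29, FDR 0.0268) with MBV, and Ccl17 turned to 0.011 between MBV and fluvastatin. All genes called moved from 4937 to 3876 with MBV under the block.

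Depth limits Ccl4, Ccl7, Ccl8 and Ccl17 most, with at most 9 counts in any library. The alternatives that need the combined treatment were not run.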
